A study of Mus musculus with 15 samples.

Results

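The homeobox genes described here are those of the Hox, Alx, Barx, Pitx, Meis, Pbx, Pknox, Six-family, Irx, Tgif, Zfhx, Cux, Shox, Lmx, Isl, Nkx, Emx, Otx, Pou, Zhx, Tshz and Meox groups, together with Hhex, Hmbox1, Mkx, Adnp and Gsc. They were chosen by gene symbol, with earlier results of these data known, and the rule itself uses no measured value. The mouse annotation held 129 protein-coding genes of these names, and 38 of them matched a row of the expression table. Pou2f1 matched 2 rows, so the set held 39 of the 12089 rows. Of the other rows, 116 matched no gene.

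RNA sequencing had been carried out on mouse dental mesenchymal cells (mDMCs) of the embryonic molar of ICR mice at E14.5. Freshly isolated mDMCs (0 h, n = 3) were compared with cells kept for 12 h (n = 2), 24 h (n = 3), 36 h (n = 3) and 48 h (n = 3) on plates in FBS-supplemented medium, and with 1 library labelled as tissue. The cells were wild type and came from the mesenchyme of the mandibular first molar, freed from the epithelium with dispase and then dissociated with trypsin. Each value was an expression score, a whole number that the authors had set to 1 shared distribution in all 15 libraries, with a median of 721 and totals of 21357605 to 21365980, so the depth of a library is unknown. A change was called higher or lower when the adjusted p was below 0.05 in limma across the 12079 rows that passed a filter on low values, all 39 homeobox rows among them, and log2 changes were taken on log2(score + 1), which understates the change of low rows. Scores were not divided by transcript length, so levels were compared between libraries and not between genes.

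Homeobox genes encode transcription factors that bind DNA through a homeodomain. Hox genes give positional identity along the trunk and the hindbrain, whereas the mesenchyme of the first pharyngeal arch, from which molars arise, is known to lack Hox expression and to be patterned by other homeobox genes. Barx1 marks the molar field, Alx and Gsc genes act in facial mesenchyme, and the Meis, Pbx and Pknox proteins are partners with which many homeodomain proteins bind DNA.

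No Hox gene had a row. The annotation listed 39 protein-coding Hox genes, of which 0 matched, and Hox levels were therefore not analysed here. The lowest maximum of any row was 13, so no row was listed at 0 in every library, and the 116 rows without a matched gene could not be assigned. A missing row is thus not a measured level of 0. Rows were found for 0 of 14 Nkx genes and for 0 of 2 each of the Emx, Otx, Lmx and Isl genes, and neither Hhex nor Mkx had one. Of the genes with a Pou symbol, Pou2af1 among them, 3 of 16 matched, and of the Irx genes, 1 of 6. In contrast, the Meis (3 of 3), Tshz (3 of 3), Zhx (3 of 3), Cux (2 of 2) and Meox (2 of 2) genes were complete, and the Six-family (4 of 6), Pbx (3 of 4), Alx (2 of 3), Pitx (2 of 3), Zfhx (2 of 3), Tgif (2 of 4), Barx (1 of 2) and Pknox (1 of 2) families were held in part.

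The homeobox itself is shown for 5 genes of the patterning group and their partners, because these are the members whose changes are followed below and because the sequence shows the class each belongs to. A homeobox was found in the open reading frame of 27 of the 39 rows. It spanned 60 codons in the typical members and 63 codons in the class with a loop of 3 extra codons (TALE), which includes Meis, Pbx, Pknox, Irx and Tgif. Sequences are from GENCODE vM21 transcripts on GRCm38, 5′ to 3′. In the first 3, capitals mark codon 50, whose residue contributes to the choice of DNA site. In the last pair, capitals mark the loop.
Barx1: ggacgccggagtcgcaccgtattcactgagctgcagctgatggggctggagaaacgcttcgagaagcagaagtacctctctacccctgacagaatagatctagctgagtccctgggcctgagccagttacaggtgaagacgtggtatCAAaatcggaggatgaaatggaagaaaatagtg
Alx4: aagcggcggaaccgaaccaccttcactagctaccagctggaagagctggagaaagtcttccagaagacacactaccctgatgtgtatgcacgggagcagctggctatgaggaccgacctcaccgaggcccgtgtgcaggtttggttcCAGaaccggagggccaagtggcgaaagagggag
Gsc: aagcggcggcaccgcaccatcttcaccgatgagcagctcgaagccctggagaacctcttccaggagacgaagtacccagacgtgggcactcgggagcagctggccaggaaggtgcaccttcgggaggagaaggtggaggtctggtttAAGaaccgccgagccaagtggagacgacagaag
Meis2: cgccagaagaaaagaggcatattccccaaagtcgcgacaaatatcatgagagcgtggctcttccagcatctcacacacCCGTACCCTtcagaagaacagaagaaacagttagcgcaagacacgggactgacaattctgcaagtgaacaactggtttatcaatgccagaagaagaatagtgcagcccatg
Pbx2: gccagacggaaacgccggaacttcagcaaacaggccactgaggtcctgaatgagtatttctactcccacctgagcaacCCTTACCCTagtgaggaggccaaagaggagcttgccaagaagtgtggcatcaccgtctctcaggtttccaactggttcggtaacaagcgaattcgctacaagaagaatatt
Codon 50 was AAG in the rows of Gsc, Pitx1, Six2, Six4 and Six5, among others. CAG or CAA stood there in 7 rows, those of Alx1, Alx4, Barx1, Meox1, Meox2, Shox2 and Zfhx4. The Alx1 and Alx4 homeoboxes shared 138 of 180 bases (76.7%), and those of Meis1 and Meis2 159 of 189 (84.1%). The loop codons were found in 7 of the 9 TALE homeoboxes, and Tgif1 and Tgif2 carried other codons there.

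Some libraries stood apart. Markers of dental or oral epithelium, of which 8 of the 10 listed were summed, came to 13765 in 0 h replicate 1, against 1423 and 1696 in the other 0 h libraries. Transcript length moved with 0 h replicate 3 and separated the 12 h libraries from each other: Spearman's rho between length and the deviation from the mean of the time, across 11963 rows of one library and given as a description, was 0.28 in 0 h replicate 3, 0.39 in 12 h replicate 1 and -0.21 to 0.13 in the libraries of the other times and the other 0 h replicates. With 2 libraries at 12 h the value of replicate 2 is the mirror image of that of replicate 1. Dental mesenchyme markers, all 13 with a row, summed to 86051 to 103627 at 0 h, 59274 to 101774 at 24 h and 53367 to 62794 at 48 h, with Prrx1 giving the largest share. At 48 h, 8 of the 13 were lower, Bmp4 (1.61) and Fgf10 (0.86) were higher, and Prrx1, Dlx1 and Dlx2 were not called. Beside these, 34.0% of all rows tested were lower at 48 h and 37.1% were higher. Endothelial markers (6 of 6) summed to 7473 to 8758 at 0 h and 486 to 851 at 48 h, with Cldn5 listed at 0 in every library from 24 h on. Red cell markers (3 of 4) went from 30714 to 45152 at 0 h down to 19 to 66 at 48 h. The part of these cells in the changes below was not tested, and in bulk RNA fewer cells of a type and less RNA per cell cannot be told apart.

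Most homeobox rows were lower in cultured mDMCs than in freshly isolated mDMCs. At 48 h, 28 of the 39 rows were lower, 5 were higher and 6 passed the test in neither direction. Among all rows tested, 34.0% were lower and 37.1% were higher. The median change of the homeobox rows was -0.92 on the log2 scale, beside 0.03 for all rows. Among the largest falls were those of Six5, Meox1, Cux2, Alx4, Gsc, Pou6f1 and Tshz1, and Irx3, Tgif1, Meis3, Zhx2 and Meox2 were the rows that rose. By a rule that asks for a fold above 2 at an unadjusted p below 0.05, 18 rows were lower (15.9% of all rows) and Irx3 was the 1 row higher (16.2% of all rows). The heat map by library shows these changes row by row.

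**Figure D1:**
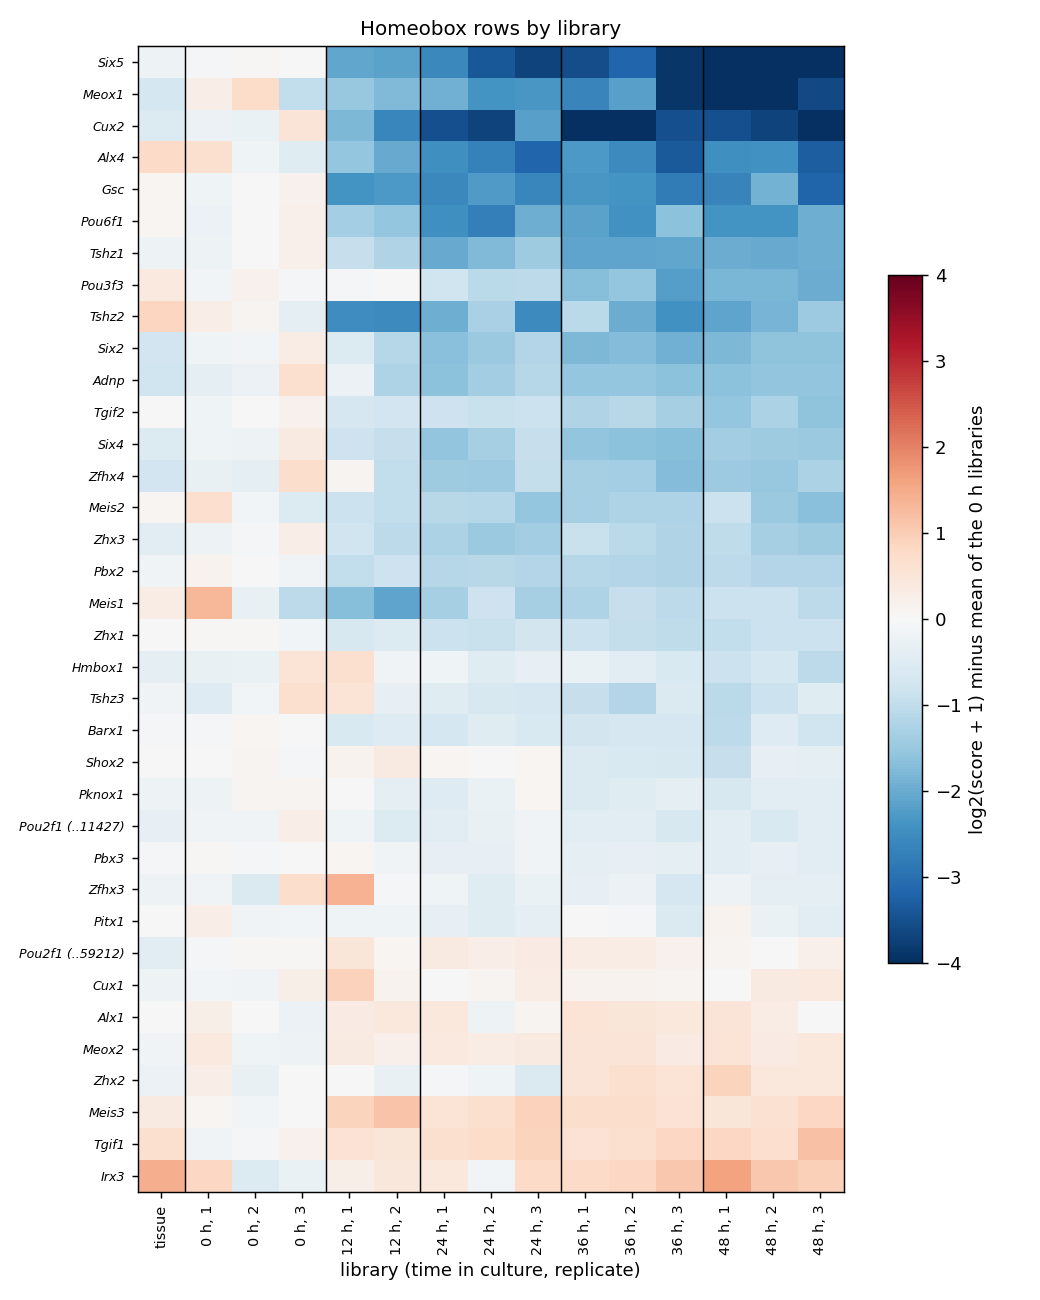
Each row is 1 of 36 homeobox rows and each column a library, with the tissue library first and the others ordered by time in culture. The colour gives log2(score + 1) minus the mean of the 3 libraries at 0 h (blue lower, red higher, differences beyond 4 in the end colour), and most rows turn blue from 12 h on.

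The genes that pattern the molar and facial mesenchyme moved unequally, with Alx4, Gsc and Barx1 lower and Alx1 and Pitx1 passing no test at 48 h. Alx4, a paired-class factor of facial and limb mesenchyme (GRCm38 chromosome 2, 93642384 to 93681339, 4 exons), had scores of 385, 218 and 173 at 0 h, 82 and 60 at 12 h, 44, 37 and 26 at 24 h, then 49, 41 and 23 at 36 h, and 44, 45 and 24 at 48 h. Every cultured library was below every 0 h library. The fall at 48 h was -2.72 on the log2 scale (SE 0.37, adjusted p = 2.47e-05), and the group means were 258.7 ± 111.7 (SD, n = 3) and 37.7 ± 11.8 (SD, n = 3). Its paralogue Alx1, also a factor of facial mesenchyme (chromosome 10, 103007846 to 103029054), had scores of 172, 143 and 124 at 0 h, and 206, 177 and 144 at 48 h. These groups overlapped, and the difference of 0.26 (SE 0.18) had an adjusted p of 0.223. It was 0.15 without 0 h replicate 3, 0.14 without 48 h replicate 1 and 0.39 without 48 h replicate 3, again with no call. Alx1 was called higher only at 36 h, at 211, 205 and 194 (0.48, adjusted p = 0.0319), and the call was lost without 0 h replicate 2, without 0 h replicate 3 and without any of the 36 h libraries.

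Gsc encodes goosecoid, a factor of the mandibular arch (chromosome 12, 104471209 to 104473330, 3 exons). Its scores were 331, 377 and 423 at 0 h, 71 and 76 at 12 h, 62, 77 and 60 at 24 h, then 74, 70 and 53 at 36 h, and 58, 101 and 40 at 48 h. All cultured libraries lay far below the 0 h range, already at 12 h. The change was -2.34 (SE 0.31, adjusted p = 3.3e-05) at 12 h and -2.58 (SE 0.27, adjusted p = 2.56e-06) at 48 h. Barx1, the molar field gene (chromosome 13, 48662998 to 48666507, 4 exons), had scores of 2837, 3165 and 3050 at 0 h, 1957 and 2096 at 12 h, 1862, 2140 and 1982 at 24 h, then 1828, 1883 and 1883 at 36 h, and 1454, 2103 and 1737 at 48 h. Here too no cultured library reached the 0 h range, but the fall was smaller, at -0.79 (SE 0.11, adjusted p = 3.28e-05) at 48 h, and most of it was present at 12 h (-0.57, SE 0.12, adjusted p = 0.00161).

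Pitx1 marks the mesenchyme of the mandible and the hindlimb and is also active in dental epithelium (chromosome 13, 55825051 to 55831425). Its scores were 3312, 2490 and 2540 at 0 h, 2452 and 2470 at 12 h, 2197, 1950 and 2122 at 24 h, then 2747, 2607 and 1827 at 36 h, and 3020, 2287 and 2048 at 48 h. The times overlapped at 0 h and 48 h, and the difference of -0.19 had a 95% interval of -0.56 to 0.18 (adjusted p = 0.335). It was -0.06 without 0 h replicate 1, -0.35 without 48 h replicate 1 and -0.07 without 48 h replicate 3, with no call at 48 h in any of these fits. At 12 h and at 24 h, every library lay below every 0 h library. The change at 24 h was -0.40 and was not called (adjusted p = 0.052). It was called lower in the fits without 0 h replicate 2, 36 h replicate 3, 48 h replicate 1 or 48 h replicate 3. The plot of scores by time shows these genes library by library.

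**Figure D2:**
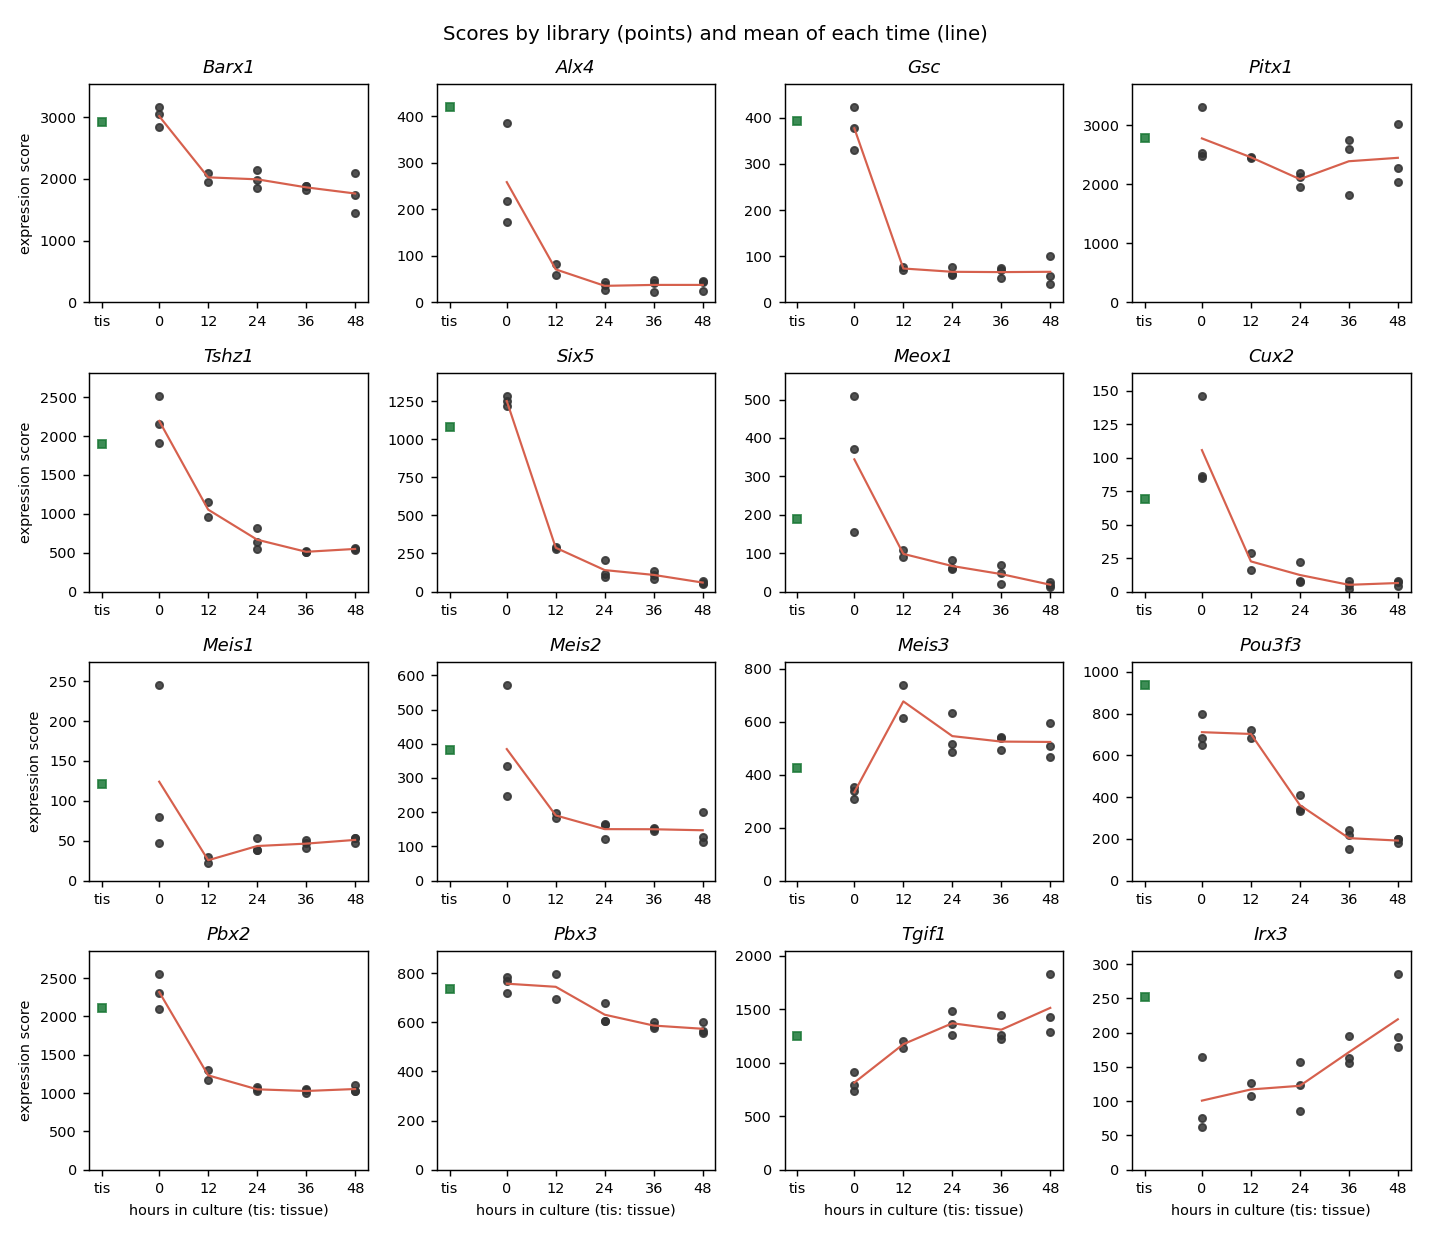
Points are the expression scores of single libraries against hours in culture, with the tissue library at the left of each panel, and the line joins the mean of each time. Each panel has its own vertical axis from 0. Alx4 and Gsc were below their 0 h range in every cultured library, as was Barx1 with a smaller change.

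Among the TALE genes, the Meis members moved in different directions. Of the 10 TALE rows, 3 were higher (Irx3, Tgif1 and Meis3) and 6 lower at 48 h, with a median change of -0.61, and of the 29 other rows 2 were higher and 22 lower, with a median of -1.25, whereas 37.1% of all rows were higher and 34.0% lower. The difference between these classes was not tested. Meis2 (chromosome 2, 115863064 to 116065047, 12 exons), a partner of Hox and Pbx proteins expressed in cranial neural crest, had scores of 571, 334 and 248 at 0 h, 197 and 184 at 12 h, 166, 163 and 122 at 24 h, then 145, 153 and 152 at 36 h, and 199, 128 and 114 at 48 h. All 11 cultured libraries were below the lowest 0 h library, and the fall at 48 h was -1.34 (SE 0.27, adjusted p = 0.000685). Meis3 (chromosome 7, 16175090 to 16178793, 5 exons), a paralogue known from hindbrain patterning, went the other way, with scores of 354, 309 and 337 at 0 h, 615 and 737 at 12 h, 486, 517 and 632 at 24 h, then 542, 539 and 492 at 36 h, and 466, 508 and 595 at 48 h. Every cultured library exceeded every 0 h library. The rise was 1.01 (SE 0.14, adjusted p = 5.01e-05) at 12 h and 0.64 (SE 0.13, adjusted p = 0.000493) at 48 h. The row of Meis3 was a short transcript of 659 bases, in which no homeobox was found.

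Meis1 (chromosome 11, 18879817 to 19018985, 10 exons), the third paralogue, had scores of 245, 80 and 47 at 0 h, 29 and 22 at 12 h, 38, 54 and 38 at 24 h, then 41, 51 and 47 at 36 h, and 53, 53 and 47 at 48 h. The 0 h libraries were spread widely, with the highest value in replicate 1, the library with the high sum of epithelial markers, and from 24 h on the lowest 0 h library lay within the range of the cultured ones. Meis1 was called lower at 12 h (-1.91, SE 0.49, adjusted p = 0.00515), at 24 h (-1.17, adjusted p = 0.032) and at 36 h (-1.06, adjusted p = 0.0463). At 48 h it passed no test, at -0.92 with a 95% interval of -1.88 to 0.03 (adjusted p = 0.0771). Without 0 h replicate 1 the 48 h value was -0.26 (adjusted p = 0.415), and without 0 h replicate 3 it was -1.44 (adjusted p = 0.00528). Without 0 h replicate 1 the values at 24 h and 36 h were -0.51 (adjusted p = 0.125) and -0.40 (adjusted p = 0.216), neither of them called. The 24 h call was also lost without 24 h replicate 1 or 3. The 36 h call was lost in every fit without 1 library, except that without 0 h replicate 3. The 12 h call was kept in all these fits.

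Pbx2 and Pbx3, which encode common partners of Hox and Meis proteins, were lower at 48 h. Pbx2 (chromosome 17, 34591266 to 34596607, 9 exons) had scores of 2550, 2303 and 2103 at 0 h, 1164 and 1297 at 12 h, 1049, 1073 and 1023 at 24 h, then 1049, 1035 and 996 at 36 h, and 1107, 1027 and 1023 at 48 h. Its level was down by 12 h and then stayed within a narrow range. The change was -0.91 (SE 0.09, adjusted p = 2.94e-06) at 12 h and -1.14 (SE 0.08, adjusted p = 6.73e-08) at 48 h. Pbx3 (chromosome 2, 34171457 to 34372038) had scores of 784, 720 and 769 at 0 h, 796 and 694 at 12 h, 607, 607 and 680 at 24 h, then 584, 600 and 577 at 36 h, and 555, 602 and 565 at 48 h, a fall of -0.40 (SE 0.08, adjusted p = 0.000844) at 48 h. Its ranges at 0 h and 12 h overlapped, and those from 24 h on lay below both.

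Of the other TALE genes, Irx3 and Tgif1 rose, whereas Tgif2 and Pknox1 fell. Irx3, an Iroquois factor (chromosome 8, 91798525 to 91801915, 4 exons), had scores of 164, 62 and 76 at 0 h, 108 and 126 at 12 h, 124, 86 and 157 at 24 h, then 156, 163 and 195 at 36 h, and 285, 194 and 179 at 48 h. The 48 h libraries were all above the 0 h libraries, and at 12 h to 36 h the ranges overlapped. Its rise at 48 h was 1.22 (SE 0.33, adjusted p = 0.00465). It was 1.63 without 0 h replicate 1 and 0.94 without 0 h replicate 2, the latter under 2-fold. The call at 36 h (0.89, adjusted p = 0.0272) was lost without 0 h replicate 2 or 3 and without 36 h replicate 2 or 3. Tgif1, a corepressor that binds Smad proteins and limits TGF-beta responses (chromosome 17, 70844205 to 70851207), had scores of 735, 792 and 916 at 0 h, 1206 and 1142 at 12 h, 1261, 1359 and 1489 at 24 h, then 1220, 1261 and 1448 at 36 h, and 1427, 1286 and 1828 at 48 h. No cultured library came down to the 0 h range, and the rise at 48 h was 0.88 (SE 0.13, adjusted p = 4.32e-05). Its paralogue Tgif2 had 2056, 2318 and 2603 at 0 h and 787, 964 and 752 at 48 h, a fall of -1.48 (SE 0.11, adjusted p = 7.71e-08). Most of the Tgif2 row (74.9% of its bases) overlaps exons of a gene on the opposite strand, and whether the counting used strand is not given in the sources used here. The change of Pknox1, a Meis-related partner of Pbx, was -0.51 (adjusted p = 0.00987) at 48 h.

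The Six-family genes, whose proteins act with Eya coactivators in sensory organs, muscle and craniofacial tissue, were among the falling rows: Six2, Six4 and Six5 were lower at 24 h, at 36 h and at 48 h. The fall of Six5, which lies beside the gene mutated in myotonic dystrophy, was the largest of the 39 rows (chromosome 7, 19094594 to 19098549, 3 exons). Its scores were 1216, 1284 and 1255 at 0 h, 293 and 282 at 12 h, 209, 118 and 95 at 24 h, then 107, 137 and 83 at 36 h, and 58, 66 and 52 at 48 h. The 0 h libraries were close to each other, and the values at 12 h and at 48 h formed separate ranges below. The change was -2.12 (SE 0.28, adjusted p = 3.2e-05) at 12 h and -4.40 (SE 0.25, adjusted p = 8.5e-09) at 48 h, from a mean of 1251.7 ± 34.1 (SD, n = 3) to 58.7 ± 7.0 (SD, n = 3). Six5 was also lower at 24 h than at 12 h (-1.11, SE 0.28, adjusted p = 0.0291).

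Because Six5 changed most, the 250 bases before its start site are shown, from the RefSeq promoters of GRCm38.p6, chr7:19094294-19094543, plus strand. Capitals mark the letters TGACAG, the core that Meis-type factors prefer.
Six5: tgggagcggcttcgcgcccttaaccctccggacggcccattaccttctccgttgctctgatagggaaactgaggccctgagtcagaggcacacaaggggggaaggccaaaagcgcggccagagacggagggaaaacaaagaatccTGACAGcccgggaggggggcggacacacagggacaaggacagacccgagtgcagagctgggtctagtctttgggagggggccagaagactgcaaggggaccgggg
TGACAG was found on either strand in 6 of 32 promoters of 24 members with an entry (18.8%), beside 19.2% of all 32851 promoters, each read from 250 bases before to 50 after the start. The Pbx-type letters TGATTNAT stood in 1 (3.12%, beside 3.22%), and the general homeodomain core TAATTA in 0 (beside 5.29%). These are counts of letters in a window and not binding sites.

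Six4 and Six2 fell less than Six5. Six4 had scores of 1929, 1884 and 2805 at 0 h and 823, 809 and 777 at 48 h (-1.43, SE 0.16, adjusted p = 4.64e-06), and Six2 had 1459, 1534 and 2048 at 0 h and 474, 547 and 544 at 48 h (-1.67, SE 0.17, adjusted p = 1.97e-06). In both, the 48 h libraries were far below the 0 h libraries. 

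Meox1 and Meox2, paralogues of somite and limb muscle development, moved in opposite directions. Meox1 (chromosome 11, 101877510 to 101894374, 3 exons) had scores of 370, 509 and 154 at 0 h, 107 and 89 at 12 h, 81, 58 and 60 at 24 h, then 48, 68 and 20 at 36 h, and 17, 12 and 24 at 48 h. Each cultured library was below the lowest 0 h library, and the fall at 48 h was -4.10 (SE 0.47, adjusted p = 4.88e-06). Meox2 (chromosome 12, 37108540 to 37179534) had 502, 340 and 332 at 0 h, 490 and 445 at 12 h, 504, 474 and 490 at 24 h, then 545, 548 and 485 at 36 h, and 559, 481 and 518 at 48 h. The highest 0 h library lay inside the 48 h range. Its rise of 0.43 (SE 0.14, adjusted p = 0.0144) lost its call without 0 h replicate 2 (0.0653), without 0 h replicate 3 (0.0634) and without 48 h replicate 1 (0.0514). Skeletal muscle markers (3 of 4 with a row) summed to 117 to 641 at 0 h and 411 to 1072 at 48 h, and their part was not tested.

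Cux2 and Pou6f1, both known from the nervous system, were also among the largest falls. Cux2, a factor of upper cortical layers (chromosome 5, 121856366 to 122049851, 23 exons), had scores of 86, 85 and 146 at 0 h, 29 and 16 at 12 h, 8, 7 and 22 at 24 h, then 5, 2 and 8 at 36 h, and 8, 7 and 4 at 48 h. The cultured libraries were all lower, and those at 36 h and 48 h were near 0. The change was -3.86 (SE 0.52, adjusted p = 2.37e-05) at 48 h. Its paralogue Cux1, a broadly expressed regulator in whose row no homeobox was found, passed no test at 48 h (0.26, adjusted p = 0.205). It was called higher at 12 h alone (0.54, SE 0.20, adjusted p = 0.0311), where its scores were 4048 and 2345 against 1975, 1936 and 2494, and without 12 h replicate 1 the value was 0.15 (adjusted p = 0.519).

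Pou6f1 (chromosome 15, 100575318 to 100591934), a POU factor of brain, had scores of 372, 441 and 496 at 0 h, 170 and 149 at 12 h, 79, 64 and 111 at 24 h, then 97, 80 and 139 at 36 h, and 81, 81 and 112 at 48 h. No cultured library reached the lowest 0 h library, and the fall at 48 h was -2.25 (SE 0.24, adjusted p = 2.68e-06). The row is a transcript annotated for nonsense-mediated decay. Pou3f3, a POU factor of brain, kidney and maxillary mesenchyme (chromosome 1, 42695768 to 42703176, 1 exon), kept its 0 h level for longer than these genes. Its scores were 650, 799 and 684 at 0 h, 685 and 720 at 12 h, 408, 332 and 345 at 24 h, then 217, 241 and 152 at 36 h, and 198, 199 and 178 at 48 h. The 12 h libraries lay within the 0 h range, the 24 h libraries below it, and those at 36 h and 48 h lower again. The change was -0.01 at 12 h (SE 0.18, adjusted p = 0.96) and -1.88 at 48 h (SE 0.16, adjusted p = 2.83e-07). Of the 2 rows of Pou2f1, a factor of most tissues, one was lower at 48 h (-0.49, adjusted p = 0.00465). The other was not called at 48 h (0.11, adjusted p = 0.448; 0.065 without 0 h replicate 1 and 0.064 without 48 h replicate 3). It was called higher at 24 h (0.31, adjusted p = 0.0425), and that call was lost in most fits without a library.

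All 3 Tshz genes, which encode zinc finger and homeobox proteins, were lower at 48 h. Tshz1, required in the middle ear and soft palate (chromosome 18, 84011627 to 84086404, 2 exons), had scores of 1910, 2161 and 2513 at 0 h, 1152 and 954 at 12 h, 541, 640 and 818 at 24 h, then 507, 505 and 520 at 36 h, and 546, 540 and 557 at 48 h. Its ranges at 0 h, 12 h and 24 h were separate from each other, and the 36 h and 48 h libraries were close together. The change was -1.06 (SE 0.16, adjusted p = 8.35e-05) at 12 h and -1.99 (SE 0.14, adjusted p = 5.74e-08) at 48 h. Tshz2, of which 73.2% overlaps exons of a gene on the opposite strand, had 134, 119 and 85 at 0 h and 25, 30 and 40 at 48 h (-1.80, SE 0.38, adjusted p = 0.000975). The fall of Tshz3 (-0.81, SE 0.29, adjusted p = 0.0257) was -0.49 without 0 h replicate 3 (adjusted p = 0.127), and the call was also lost without 48 h replicate 1 and without 48 h replicate 2.

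The Zhx genes encode zinc finger and homeobox repressors. Zhx1 and Zhx3 fell, at -0.90 (adjusted p = 7.64e-07) and -1.25 (adjusted p = 5.74e-06) at 48 h, the Zhx3 row being a transcript without a coding sequence. Zhx2 (chromosome 15, 57694665 to 57839832) had 253, 173 and 215 at 0 h, 212 and 173 at 12 h, 205, 187 and 141 at 24 h, then 300, 331 and 310 at 36 h, and 389, 281 and 286 at 48 h. The libraries at 36 h and 48 h were above the 0 h range, and those at 12 h and 24 h were not. The rise at 48 h was 0.58 (SE 0.18, adjusted p = 0.0133), and its call was lost without 0 h replicate 2 (0.0658) and without 48 h replicate 1 (0.065).

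Adnp, Zfhx4, Zfhx3 and Hmbox1 complete the set, with Shox2. Adnp, a chromatin protein of embryonic development, had 3242, 3607 and 6719 at 0 h and 1381, 1444 and 1440 at 48 h, without overlap (-1.59, SE 0.26, adjusted p = 0.000135). Its row shares 89.3% of its bases with another annotated gene on the same strand. Zfhx4 had 2301, 2140 and 4618 at 0 h and 1031, 1001 and 1166 at 48 h (-1.41, SE 0.30, adjusted p = 0.000984). In both genes the highest 0 h library was replicate 3, one of the libraries in which length moved with the values. Replicate 3 was the highest 0 h library in 19 of the 39 homeobox rows, beside 34.1% of all rows, and 12 h replicate 1 was above replicate 2 in 29 of 39, beside 40.1% of all rows. Hmbox1, a telomere-binding factor, fell at 48 h alone (-0.87, adjusted p = 0.00536). Zfhx3, whose row is 1212 bases in 2 exons, was called at none of the 4 times, with -0.31 (SE 0.34, adjusted p = 0.419) at 48 h. This value was 0.03 without 0 h replicate 3 and -0.60 without 0 h replicate 2, and the row was called higher at 12 h without 0 h replicate 3 (0.99, adjusted p = 0.0283) and without 12 h replicate 2 (1.38, adjusted p = 0.00637). Shox2, a factor of palate and limb, is described below with the later changes. The plot of changes with intervals gives 36 rows at 48 h.

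**Figure D3:**
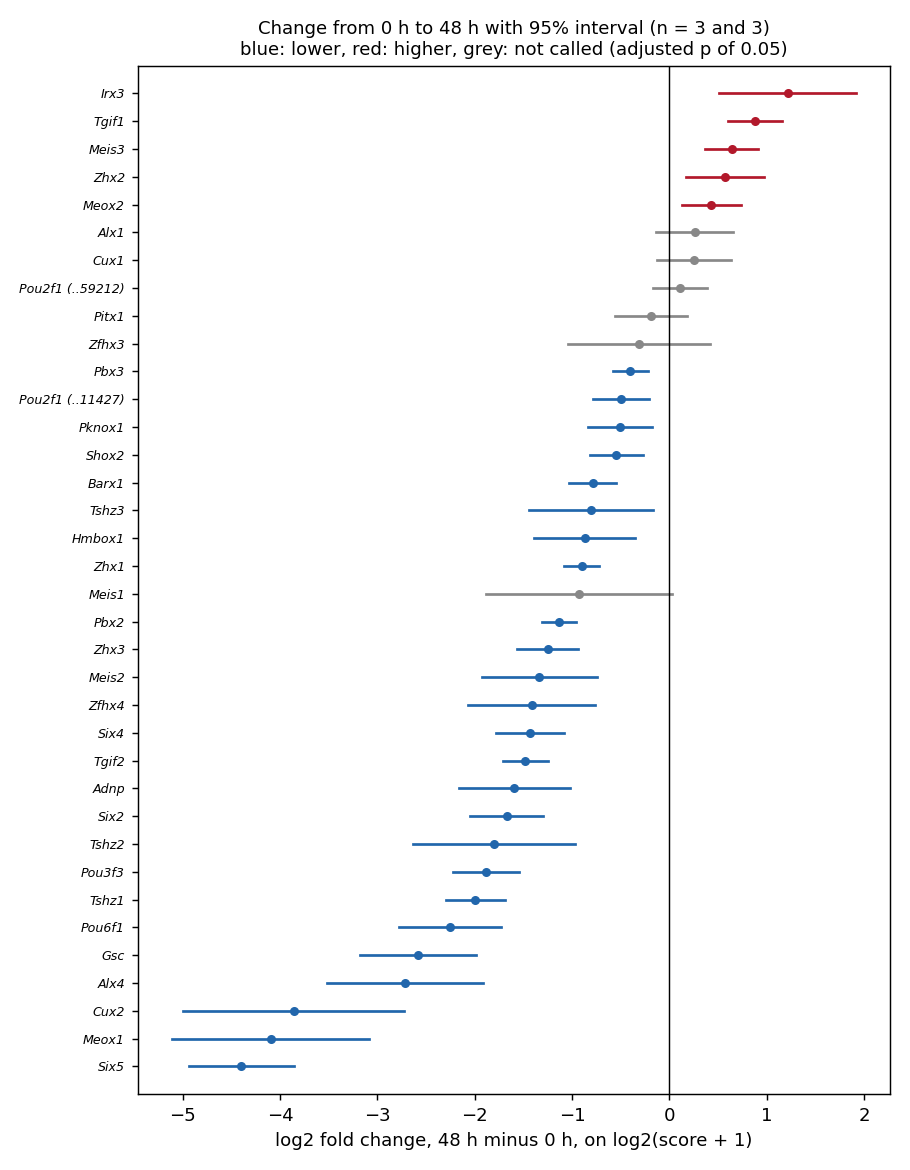
Points are log2 changes from 0 h to 48 h for 36 homeobox rows, on log2(score + 1), and the lines are 95% intervals from limma. Blue rows were called lower, red rows higher (5), and grey rows were not called (6). Six5 lies lowest at -4.40 and Irx3 highest at 1.22.

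Most of the falling rows were already lower at 12 h, as were most falling rows of the whole table. At 12 h, 20 homeobox rows were lower and 3 were higher, whereas 28.3% of all rows were lower and 29.9% higher. At 24 h, 24 were lower and 4 higher (all rows 31.8% and 35.0%), and at 36 h, 28 were lower and 6 higher (all rows 34.0% and 36.0%). The median changes of the homeobox rows at 12 h, 24 h and 36 h were -0.43, -0.83 and -1.05, beside 0.02, 0.03 and 0.02 for all rows. By the rule with a fold above 2, 10 rows were lower and 1 higher at 12 h (all rows 12.1% and 12.2%), 17 and 0 at 24 h (14.2% and 13.8%), and 20 and 0 at 36 h (15.6% and 15.6%). All these comparisons share the 0 h libraries. Of the 28 rows lower at 48 h, 19 were already lower at 12 h and 23 at 24 h (65.2% and 80.4% of all rows lower at 48 h), 5 were first called at 24 h (among them Pbx3, Pou3f3 and Zfhx4), and 4 later (Hmbox1, Pknox1, Shox2 and Tshz3). The median of these 28 rows had 51.8% of its 48 h change at 12 h and 87.4% at 24 h. At all 4 times, 18 rows were lower (21% of all rows), and Meis3 and Tgif1 were higher (23.0% of all rows). No row was called in both directions. With 2 libraries at 12 h, 7 of the 23 calls there were lost in at least 1 fit without a library, among them those of Adnp, Cux1, Cux2, Meis2, Meox1 and Pou2f1. In such fits 8 rows gained a call at 12 h, among them Irx3, Meox2, Shox2, Zfhx3 and Zfhx4.

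Read without a model, 27 of the 39 homeobox rows had every 48 h library below every 0 h library, as did 34.6% of all rows, and 4 had every 48 h library above, as did 37.3% of all rows. At 12 h 21 rows lay below the 0 h range and 5 above it (32.6% and 33.7% of all rows), at 24 h 25 and 3 (33.1% and 35.8%), and at 36 h 27 and 5 (36.6% and 38.2%). Across all 11 cultured libraries, 19 rows lay below the whole 0 h range (22.6% of all rows). Meis3 and Tgif1 were the 2 above it (24.6% of all rows).

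From 1 culture time to the next, few homeobox rows moved. Between 12 h and 24 h, Pou3f3 (-0.96, SE 0.18, adjusted p = 0.00663), Six5 and Tshz1 (-0.67, SE 0.16, adjusted p = 0.0201) fell and none rose, whereas 3.67% of all rows fell and 4.59% rose. This count was 0 without 12 h replicate 1, 8 without 12 h replicate 2, 6 without 0 h replicate 3, 1 without 24 h replicate 2 and 5 without 24 h replicate 3. Over all rows the count lower was 443, and in the same order 49, 640, 561, 131 and 380. Between 24 h and 36 h, Pou3f3, Shox2 and Tgif2 fell and Zhx2 rose, beside 9.64% and 10% of all rows. With a fold above 2 the rule called 1 row lower and 0 higher in the first of these steps (1.89% and 1.8% of all rows), and 0 and 0 in the second (1.76% and 2.41%). Shox2 had scores of 2896, 3157 and 2792 at 0 h, 3227 and 3742 at 12 h, 3123, 2994 and 3138 at 24 h, then 1965, 1950 and 1873 at 36 h, and 1565, 2338 and 2235 at 48 h. It was within or above its 0 h range up to 24 h and below it from 36 h on. Its step from 24 h to 36 h was -0.68 (SE 0.13, adjusted p = 0.004), and its change from 0 h to 48 h was -0.55 (SE 0.13, adjusted p = 0.00168). Pou3f3 fell again by 0.85 on the log2 scale in that interval (SE 0.16, adjusted p = 0.00395), and Zhx2 rose by 0.83 (SE 0.18, adjusted p = 0.00958). The fall of Tgif2 was -0.34 (SE 0.11, adjusted p = 0.0405), and with the replicate number as a block its call was lost (adjusted p = 0.051).

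Between 36 h and 48 h, limma called 0 homeobox rows, and 0.0248% of all rows as lower and 0.0% as higher. The smallest adjusted p of a homeobox row was 0.177. At an unadjusted p below 0.05 there were 3 homeobox rows, and 1617 of all rows, and at that p with a fold above 2 there were 1 homeobox row lower and 0 higher (0.96% and 0.397% of all rows).

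The tissue library had no replicate, so it was set beside the 3 libraries at 0 h without a test. The homeobox rows of the tissue lay near those of the freshly isolated mDMCs, with a median difference from the 0 h mean of -0.15, beside -0.01 for all rows. More than 2-fold higher in tissue was 1 row, Irx3 (252, against 164, 62 and 76), and 0 rows were more than 2-fold lower, beside 2.56% and 1.22% of all rows. The tissue score was above every 0 h library in 6 rows (29.7% of all rows) and below every one in 14 (32.0% of all rows). The highest differences were those of Irx3 (1.45), Tshz2 (0.87) and Alx4 (0.78), and the lowest were those of Adnp (-0.79), Six2 (-0.77) and Zfhx4 (-0.76). Of the genes with the largest falls in culture, Alx4 (420) was above every 0 h library in tissue, Gsc (393), Meox1 (189) and Pou6f1 (457) were within the 0 h range, and Six5 (1083), Cux2 (69) and Tshz1 (1896) were below every 0 h library. For each of these genes, every 48 h library was below the tissue library. Of the genes that rose, Irx3, Tgif1 (1254) and Meis3 (424) were above every 0 h library in tissue, and the tissue scores of Irx3 and Tgif1 lay within the range of the cultured libraries. Meox2 (346) and Zhx2 (178) were within the 0 h range. Meis1 had 121 in tissue, below 0 h replicate 1. The same 8 epithelial markers summed to 5103 in tissue, and muscle markers summed to 3107.

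**Figure D4:**
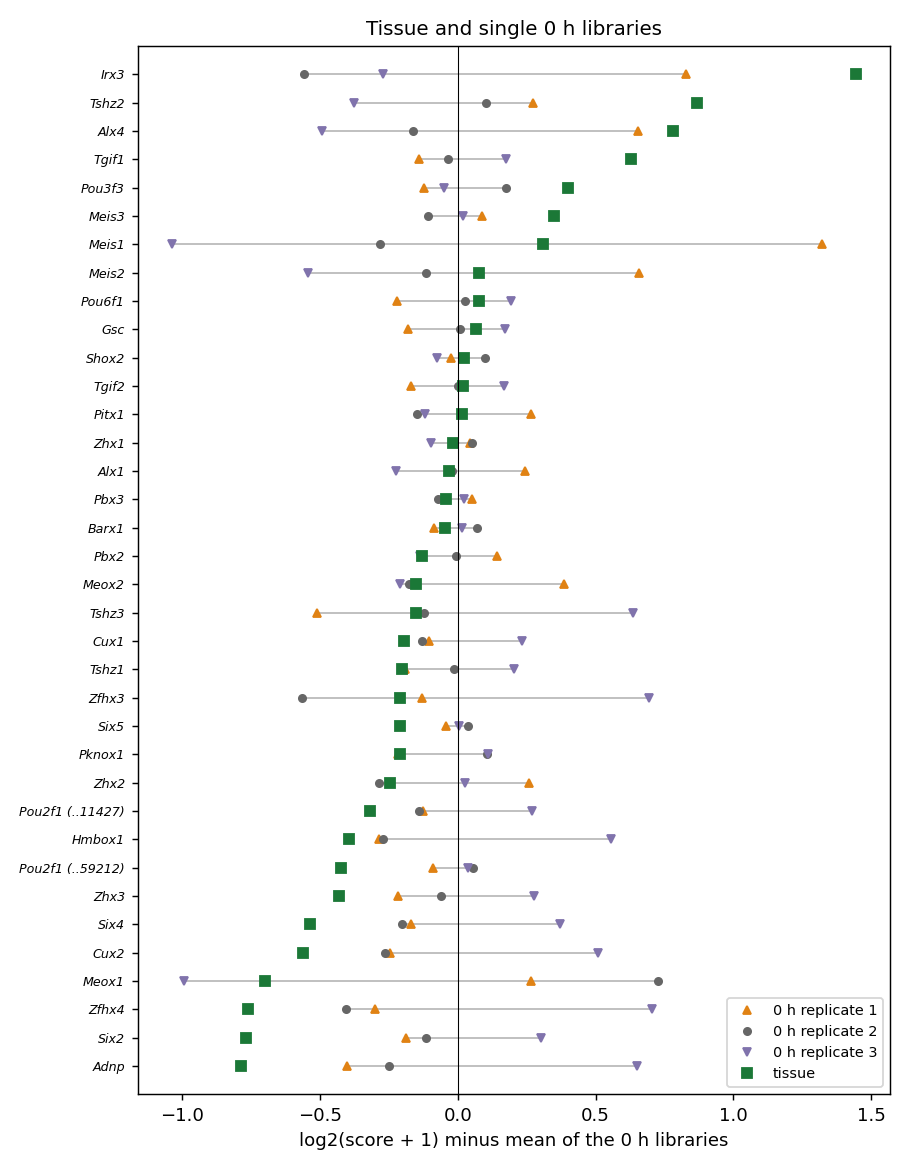
For 36 homeobox rows, the difference of log2(score + 1) from the mean of the 3 libraries at 0 h is plotted for the tissue library and for the single 0 h libraries. Tissue values run from -0.79 (Adnp) to 1.45 (Irx3), and the 0 h replicates of Meis1 are spread widely.

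Most partner genes of these families were also lower at 48 h. Of 27 listed cofactors of Six-family, Pbx, LIM-domain, Tgif and Adnp proteins and of the Groucho corepressors, 26 had a row, and 22 were lower and 1 higher at 48 h (34.0% and 37.1% of all rows), with a median change of -0.74. Tle2, a Groucho corepressor that homeodomain proteins recruit, had 788, 812 and 734 at 0 h and 15, 27 and 28 at 48 h (-5.05, adjusted p = 1.69e-09). Ldb2, a bridging factor for LIM-domain proteins, had 301, 265 and 322 at 0 h and 23, 36 and 30 at 48 h, a change of -3.29. In both, the groups lay far apart. Sin3a (-1.44), Cbx3 (-1.43), Tle3 (-1.42), Ssbp4 (-1.35), Tle4 (-1.24), Cbx5 (-1.24) and Cbx1 (-1.20), which encode corepressors, heterochromatin proteins and an Ldb partner, also fell by more than 2-fold. Pbxip1, which binds Pbx proteins, was the 1 gene that rose, by 1.02. The coactivator genes Eya1 (-0.01, adjusted p = 0.94) and Eya3 (0.02, adjusted p = 0.87) were not called, nor was Smad2 (-0.03). Their relatives Eya4 (-0.63, adjusted p = 0.00465), Smad3 (-0.89) and Smad4 (-0.30) were lower. At 12 h, 18 of the 26 were lower and 0 higher (28.3% and 29.9% of all rows).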

How the data were processed

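RNA of 15 libraries had been sequenced. Per the study's methods, the authors removed adaptors, used bowtie on mm10 transcripts and quantified them by RSEM (1.1.21 in the submitters' processing notes). The deposited values carry the name of a count rate (cpm) but are whole-number scores that sum to 21357605 to 21365980 per library and share 1 distribution, so they were treated as an expression score and no count model was used. Depth is unknown, and no interval for counting error was given.

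Ensembl transcripts were matched to GENCODE vM21 (11973 of 12089 rows, 11960 genes). No sample column was left out (0). After a filter (1 ppm of a library's total, reached in 2 or more libraries), 12079 rows were fitted by limma 3.58.1 in R 4.3.3 on log2(score + 1), with a trend, 1 mean per time over 14 libraries, two-sided, Benjamini-Hochberg adjusted, called below 0.05. The tissue library (n = 1) entered no fit. The study's methods name independent experiments in general and sequencing in duplicate or triplicate, but do not say whether these libraries were separate cultures or animals, so p-values measure the spread between these libraries, which may be technical. Deviations of same-numbered libraries correlated above 0.1 from 24 h to 36 h (correlations 0.13 to 0.16) and for 24 h and 48 h (0.20 to 0.32), in every pair, but not in every pair of any other 2 times, so the numbers were taken to pair libraries in the step from 24 h to 36 h only.

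Among the members reported singly, those named with every library were the Alx, Barx, Pitx, Meis, Pbx and Gsc members. Up to 8 called members with the largest rise and fall at 48 h were named in the same way. Others were named with their family, and values in single libraries of Tgif2, Adnp, Shox2, Pou3f3, Cux1, Tshz2, Zfhx4, Six2 and Six4 were added after they were seen. The members and lists were chosen with earlier results of these data known. Alternatives covered the pseudocount (10), scaling, the filter, the threshold, a replicate block and leaving out each library, and the method was tested on simulated data. Sequences came from GENCODE transcripts and RefSeq promoters, and protein sequences were not used here. Some members are counted but not reported singly here.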

Additional observations from a re-analysis of the deposited data

How the results depend on the processing

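With the threshold of an unadjusted p below 0.05 and a fold above 2, counts of homeobox rows against 0 h were 1 higher and 10 lower at 12 h, 0 higher at 24 h, 0 higher at 36 h, and 1 higher and 18 lower at 48 h. By that threshold 1 row was lower from 12 h to 24 h, 0 higher and 0 lower from 24 h to 36 h, and 1 lower from 36 h to 48 h. Trimmed-mean scaling gave 2 higher at 24 h, as did a fit of the compared times only, which also gave 1 lower from 12 h to 24 h. Replicate numbers were tried as a block: 5 rows were then lower from 12 h to 24 h, and no other count moved by over 1.5 times. Of 26 same-numbered pairs, 11 had a correlation of deviations above 0.1 (range -0.25 to 0.32), and 10 of 14 libraries correlated best with their own number, a hint from the data and not from the design. Leaving out 0 h replicate 3 and 12 h replicate 1 together, chosen after seeing the data, gave 3 higher at 36 h and 0 lower from 12 h to 24 h.

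Leaving out each library gave 2 to 5 higher and 14 to 20 lower at 12 h, 2 to 4 and 23 to 26 at 24 h, 2 to 6 and 26 to 27 at 36 h, and 3 to 5 and 27 to 28 at 48 h. From 12 h to 24 h it gave 0 to 8 lower, and from 24 h to 36 h 1 higher and 2 to 5 lower. The count higher at 36 h was 2 without 0 h replicate 2 and 3 without 0 h replicate 3, and that at 48 h was 3 without 0 h replicate 2 or without 48 h replicate 1. At 24 h to 36 h, 5 were lower without 24 h replicate 1. For the genes named by rule, 451 values under alternatives kept direction and side of the threshold, 2 gained a call, 7 lost one and none reversed. The exceptions were Meis1, Meox2 and Zhx2.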

Other observations

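Homeobox genes outside the families above moved in both directions. Of 61 listed, 18 had a row, and 2 were higher and 8 lower at 48 h (37.1% and 34.0% of all rows). Lhx9, a LIM-homeodomain gene, had scores of 7, 5 and 7 at 0 h and 171, 256 and 286 at 48 h, a rise of 5.0 on the log2 scale, with all 48 h libraries above the 0 h libraries. Homez rose by 0.69. At 12 h, 5 were higher and 5 lower (29.9% and 28.3% of all rows), and at 36 h 1 was higher and 9 lower (36.0% and 34.0%). Lhx9 and Homez were named after their values were seen.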
